A study of Mus musculus with 4 samples.

Results

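The genes described here are 9 secreted products of the extracellular matrix that are widely used as readouts of Smad signalling: Thbs1, Tgfbi, Ccn1, Ccn2, Postn, Timp3, Fn1, Tnc and Sparc. They were chosen by name, and all 9 were found among the 31729 genes with a transcript in the deposited tables. RNA came from tumour stem cells of primary skin squamous cell carcinoma in C57BL/6 X FBV mice, and every library carried the genotype TetO-Hras with LV-rtTA3-TGF-beta reporter. The carcinoma cells were freed of other lineages, selected for integrin α6 and CD44, and sorted by the mCherry reporter of transforming growth factor beta (TGF-β) signalling into a reporter negative and a reporter positive fraction. Each fraction gave 1 library in each of 2 experiments (n = 2 per group). The labels give neither the animals' age, nor whether the experiments used separate animals, nor the promoter that drives rtTA3, nor a group without the Hras transgene. Reporter state therefore differs between the groups, while the transgene is shared by all 4 libraries.

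TGF-β binds a receptor kinase pair on the cell surface, and the receptors phosphorylate Smad2 and Smad3, which enter the nucleus with Smad4 and bind short DNA words. Matricellular proteins are secreted into the matrix but do not build it: they tune adhesion, growth factor access and matrix remodelling. In skin they appear at wound edges and in tumour stroma, and both keratinocytes and fibroblasts can make several of them.

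Expression is given in FPKM, an abundance per transcript length and per library size, so levels can be compared between genes. Aligned bases ranged from 3.14 to 3.76 gigabases per library, and the number of reads is unknown. Markers of the sorted cells were present in every library: Itga6, which encodes integrin α6, stood at 331 and 410 FPKM without reporter activity and at 181 and 205 FPKM with it, and Cd44 at 81.5 and 112 against 88.0 and 81.3 FPKM. All 23 keratinocyte and carcinoma markers with a value were tested, and their summed level was 6427 to 6708 FPKM in reporter negative and 8847 to 9340 FPKM in reporter positive cells. Sfn (1648 and 1521 against 2883 and 2946 FPKM) and Perp (1543 and 1401 against 2720 and 2702 FPKM) carried much of that sum and most of its rise. In both experiments 13 of the 23 markers were higher and 9 lower. Of the 23 markers, the splicing regulator gene Esrp2 and the transcription factor gene Ovol1 rose, the hemidesmosome gene Col17a1 fell (723 and 775 against 259 and 249.8 FPKM), and 20 did not pass. With the experiments as blocks 7 were higher and 4 lower. Of all 11969 genes tested, 5.07% passed in either direction, and 10.4% with blocks. Keratins 5, 14, 6a and 8 were not analysed here.

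RefSeq promoters (GRCm38.p6) matched 6 of the 9 genes. No entry was found for Thbs1, Ccn2 and Fn1. The 250 bases before the start are shown for Tgfbi and Postn, the genes with an entry whose fall passed the test, and for Ccn1, which carries the TEAD word; for Postn, the window shown is the one just before the start of its annotated transcripts. Capitals mark CAGAC (the Smad box core; GTCTG on the other strand) and GGAATG (the core of the TEAD site; CATTCC on the other strand).
Tgfbi, chr13:56609336-56609585, plus strand: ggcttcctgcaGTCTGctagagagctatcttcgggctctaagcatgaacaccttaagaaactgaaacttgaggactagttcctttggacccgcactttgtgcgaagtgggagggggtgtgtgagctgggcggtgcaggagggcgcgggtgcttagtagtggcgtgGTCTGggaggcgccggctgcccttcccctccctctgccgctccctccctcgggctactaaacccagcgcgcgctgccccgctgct
Postn, chr3:54360857-54361106, plus strand: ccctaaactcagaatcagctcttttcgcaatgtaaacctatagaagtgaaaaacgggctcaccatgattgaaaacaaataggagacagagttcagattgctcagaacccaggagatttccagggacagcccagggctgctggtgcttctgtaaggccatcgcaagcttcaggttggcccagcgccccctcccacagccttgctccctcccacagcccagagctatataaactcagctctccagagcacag
Ccn1, chr3:145649986-145650235, minus strand: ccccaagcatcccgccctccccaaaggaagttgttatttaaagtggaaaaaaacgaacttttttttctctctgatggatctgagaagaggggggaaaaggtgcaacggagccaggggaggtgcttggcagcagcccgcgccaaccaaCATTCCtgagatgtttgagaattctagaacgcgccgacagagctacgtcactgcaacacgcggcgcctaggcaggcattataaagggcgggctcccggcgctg
The Tgfbi window held GTCTG 239 and 85 bases before the start, the Postn window held neither word, and the Ccn1 window held CATTCC 103 bases before the start. CAGAC on either strand was found in 4 of the 8 windows of these genes (Tgfbi, Tnc, Sparc and the other Postn window) and in 42.2% of 32851 RefSeq windows of this length. GGAATG was found in 1 of the 8 and in 12.6% of all windows. The AP-1 word TGANTCA, which reads the same on both strands apart from its middle base, was in none of the 8 windows of these genes and in 6.75% of all. The words do not overlap each other in the windows shown. These matches describe letters only.

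The comparison asked how these genes differ between tumour stem cells with and without TGF-β reporter activity. All 9 were lower in the reporter positive library than in the reporter negative library of the same experiment, in both experiments. Of 11969 genes tested, 54.2% were lower in both experiments. For 8 of the 9 genes, Fn1 being the exception, both reporter positive values also lay below both reporter negative values, which held for 42.6% of all genes tested. Thbs1, Tgfbi, Ccn2, Postn, Timp3 and Fn1 were at least 2-fold lower in both experiments, as were 5.58% of all genes tested. Summed over the 9 genes, expression was 624 and 856 FPKM in reporter negative and 276 and 314 FPKM in reporter positive cells of experiments 1 and 2, which is 2.26-fold and 2.73-fold lower. Periostin (Postn) and the protease inhibitor gene Timp3 lost most, at more than 12-fold in each experiment, and Ccn1 lost least, at 1.52-fold and 1.66-fold.

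A gene was tested when it reached 1 FPKM in at least 2 libraries, and 8 of the 9 did. Fn1 reached it in 1 library and was not tested. Ccn2 passed this filter through its reporter negative libraries alone. With limma on log2(FPKM + 1) and Benjamini-Hochberg adjustment over all genes tested, Thbs1, Tgfbi, Ccn2 and Postn fell at an adjusted p under 0.05, and Ccn1, Timp3, Tnc and Sparc did not pass. Among all genes tested 2.52% passed as lower, 2.55% as higher and 5.07% in either direction. The median change of the 8 tested genes was -1.41 on the log2 scale, beside -0.18 for all genes tested. With the 2 experiments as blocks in limma, Timp3 (adjusted p = 0.0197) and Tnc (adjusted p = 0.0443) passed as well, giving 6 of 8. In that limma fit 10.4% of the 11969 genes tested passed, 761 as lower and 489 as higher. After median-of-ratios scaling, which put the median of all genes at 0.01, the 8 tested genes were all still lower and Tgfbi no longer passed (adjusted p = 0.0581, and 0.013 to 0.228 over its alternatives). Each call needed all 4 libraries. Without any 1 of them the 8 tested genes were all still lower, with a median log2 change of -1.56 to -1.26.

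**Figure D1:**
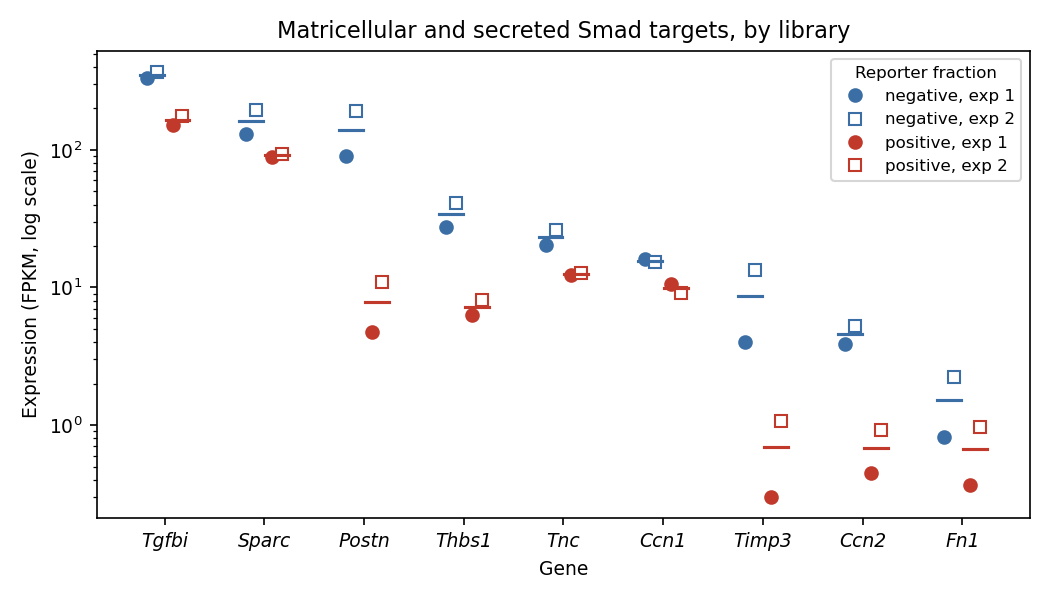
Expression of the 9 genes in each library, in FPKM on a log axis, ordered by the reporter negative mean. Points are single libraries (blue, reporter negative; red, reporter positive; filled circles, experiment 1; open squares, experiment 2) and short lines are group means. Only for Fn1 do the groups overlap.

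The fasciclin family proteins periostin and Tgfbi (βig-h3) are secreted and bind integrins and collagen. Postn (ENSMUSG00000027750, mm9 chromosome 3, 54165031 to 54194956, plus strand) was at 89.7 and 190.9 FPKM in reporter negative and 4.78 and 10.99 FPKM in reporter positive cells. Both reporter negative libraries were far above both reporter positive ones, and the lowest of them exceeded the highest of the others 8.16-fold. The difference was 18.8-fold in experiment 1 and 17.4-fold in experiment 2 (log2 change -3.99 ± 0.50 SE, limma adjusted p = 0.0283). By size of fall, Postn ranked 11 of the 11969 genes tested. Tgfbi (ENSMUSG00000035493, chromosome 13, 56710964 to 56740700, plus strand) had the highest level of the 9 genes in every library, at 333 and 367 against 152 and 176 FPKM. It fell 2.19-fold and 2.08-fold (log2 change -1.09 ± 0.16 SE, limma adjusted p = 0.0357), and the groups did not overlap. Without 1 library at a time the adjusted p ranged from 0.0633 to 0.115 for Postn and from 0.085 to 0.228 for Tgfbi. With robust variance estimation Postn missed the threshold (adjusted p = 0.057), and over all 14 alternatives its adjusted p ran from 0.00393 to 0.115. Postn made up 14.4% and 22.3% of the summed FPKM of the 9 genes in reporter negative cells and 1.73% and 3.50% in reporter positive cells, while Tgfbi held 42.9% to 56.2% in all 4 libraries.

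Thrombospondin 1, encoded by Thbs1, modulates adhesion and can release TGF-β from its latent complex. Thbs1 (ENSMUSG00000040152, chromosome 2, 117937612 to 117952869, plus strand) was at 27.3 and 41.1 FPKM in reporter negative and 6.29 and 8.14 FPKM in reporter positive cells. The groups stood apart, with differences of 4.35-fold and 5.05-fold (log2 change -2.08 ± 0.26 SE, limma adjusted p = 0.0268). Leaving out 1 library gave an adjusted p of 0.0563 to 0.126. Tenascin C, encoded by Tnc, weakens the adhesion of cells to fibronectin and is induced in wounds. Tnc (ENSMUSG00000028364, chromosome 4, 63620819 to 63681760, minus strand) was at 20.4 and 26.1 against 12.3 and 12.8 FPKM. Every reporter positive value lay below every reporter negative one (1.67-fold and 2.04-fold), and the limma adjusted p was 0.0727.

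The CCN proteins are small modular matricellular proteins, and both Ccn1 (also called Cyr61) and Ccn2 (also called Ctgf) are textbook targets of Smads and of the Hippo effectors YAP and TEAD. Ccn2 (ENSMUSG00000019997, chromosome 10, 24315248 to 24318489, plus strand) was at 3.90 and 5.24 FPKM in reporter negative and 0.451 and 0.919 FPKM in reporter positive cells. Reporter positive values were 8.64-fold and 5.70-fold lower (log2 change -1.73 ± 0.25 SE, limma adjusted p = 0.0363). For this low gene the log2(FPKM + 1) scale understates the change: with 0.1 FPKM added in place of 1 the log2 change was -2.62 and the adjusted p 0.0536, within a range of 0.00919 to 0.186 over its alternatives. Leaving out 1 library gave an adjusted p of 0.0787 to 0.186. Ccn1 (ENSMUSG00000028195, chromosome 3, 145309935 to 145312949, minus strand) was at 16.0 and 15.2 against 10.5 and 9.14 FPKM. Its groups did not overlap, but the difference did not pass (log2 change -0.62 ± 0.16 SE, limma adjusted p = 0.105). In reporter negative cells Ccn1 was thus the more abundant of the pair by 4.11-fold and 2.90-fold, and in reporter positive cells by 23.4-fold and 9.94-fold.

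Timp3 encodes a matrix-bound inhibitor of metalloproteinases and of the shedding enzyme ADAM17. Timp3 (ENSMUSG00000020044, chromosome 10, 85763117 to 85812251, plus strand) was at 4.003 and 13.3 FPKM in reporter negative and 0.302 and 1.07 FPKM in reporter positive cells. It was higher in experiment 2 than in experiment 1 in both fractions, 3.32-fold in reporter negative and 3.55-fold in reporter positive cells, and within each experiment it was lower in the reporter positive fraction by 13.2-fold and 12.4-fold. This spread between experiments stood beside a limma adjusted p of 0.0866 without blocks and 0.0197 with them. The lowest value had a deposited Cufflinks interval of 0.220 to 0.386 FPKM, well below the interval of 3.66 to 4.35 FPKM of the reporter negative library of the same experiment. These intervals cover counting error only.

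Sparc (osteonectin) binds collagen and calcium and modulates matrix deposition. Sparc (ENSMUSG00000018593, chromosome 11, 55208002 to 55233582, minus strand) was at 129 and 195 FPKM in reporter negative and 89.3 and 93.6 FPKM in reporter positive cells. The difference was 1.45-fold in experiment 1 and 2.08-fold in experiment 2, and it did not pass (log2 change -0.79 ± 0.23 SE, limma adjusted p = 0.121). Fibronectin, encoded by Fn1, is the fibrillar protein on which many of the others assemble. Fn1 (ENSMUSG00000026193, chromosome 1, 71632097 to 71699745, minus strand) was near the bottom of the range, at 0.825 and 2.24 against 0.366 and 0.966 FPKM. It was 2.26-fold and 2.32-fold lower within the experiments, yet the groups overlapped, because the reporter positive library of experiment 2 lay above the reporter negative library of experiment 1. In a limma fit without the filter on low values Fn1 had a log2 change of -0.57 ± 0.38 SE (adjusted p = 0.516). Like Timp3, Fn1 and Postn were higher in experiment 2 in both fractions, Fn1 by 2.72-fold and 2.64-fold and Postn by 2.13-fold and 2.30-fold in reporter negative and reporter positive cells.

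**Figure D2:**
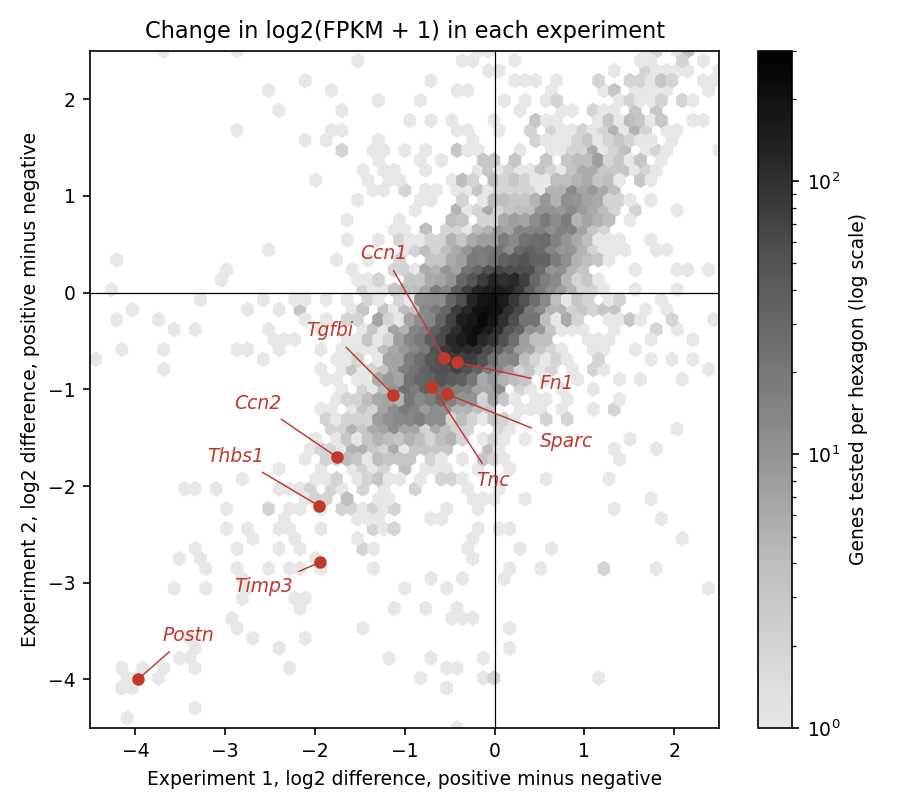
Difference in log2(FPKM + 1), reporter positive minus reporter negative, in experiment 1 (horizontal) against experiment 2 (vertical). Grey hexagons count the genes tested that lie within the axes, and red points are the 9 genes. All 9 lie in the lower left of the plot, below 0 on both axes, with Postn at -3.97 and -4.00 and Ccn1 at -0.56 and -0.68.

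The order of levels differed between the fractions. In reporter negative cells the means ran Tgfbi, Sparc, Postn, Thbs1, Tnc, Ccn1, Timp3, Ccn2 and Fn1. Sparc (129 to 195 FPKM) and Postn (89.7 to 190.9 FPKM) overlapped, as did Timp3 (4.003 to 13.3 FPKM) and Ccn2 (3.90 to 5.24 FPKM), while Thbs1 and Tnc stood apart by a narrow margin (27.3 against 26.1 FPKM). In reporter positive cells the order was Tgfbi, Sparc, Tnc, Ccn1, Postn, Thbs1, Timp3, Ccn2 and Fn1. There Postn (4.78 to 10.99 FPKM) overlapped both Ccn1 (9.14 to 10.5 FPKM) and Thbs1 (6.29 to 8.14 FPKM), and Timp3, Ccn2 and Fn1 could not be ordered, all lying between 0.302 and 1.07 FPKM. Postn passed from a mean above that of 93.3% of the genes tested in reporter negative cells to one above that of 43.3% in reporter positive cells, whereas Tgfbi stayed above 97.3% and 94.5%.

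The transcript records show which forms carry these values. Most Postn FPKM came from 2 main forms that differ at exon 17, an 81-base cassette that is shown because it separates them.
Postn cassette exon, GRCm38 chr3:54380412-54380492, plus strand: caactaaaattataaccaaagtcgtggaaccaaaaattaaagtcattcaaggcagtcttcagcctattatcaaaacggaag
In the files the exon lies at 54184334 to 54184414 (mm9). Forms with it made up 29.4% and 21.3% of Postn in reporter negative cells (26.4 and 40.6 FPKM) and 17.3% and 0% in reporter positive cells (0.826 and 0 FPKM). The main form without it fell in the same way, from 63.3 and 150 FPKM to 3.21 and 10.99 FPKM, so both main forms were lower. A further form without the exon was listed at 0.747 FPKM in the reporter positive library of experiment 1. At the low level of reporter positive cells, the split between forms is a model estimate of Cufflinks and was not tested.

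Tnc has a block of alternative fibronectin type III exons in the middle of the protein. The files list 6 of them (1638 bases) in the longest annotated form. Forms with at least 1 of these exons made up 51.5% and 64.9% of Tnc FPKM in reporter negative cells and 45.6% and 78.5% in reporter positive cells, so the reporter positive fraction held both the lowest and the highest share. In 3 of the 4 libraries Cufflinks also assembled Tnc forms whose first exon starts 26199 to 26241 bases upstream of the annotated start. They carried 28.9% and 49.9% of Tnc in reporter negative cells, and 0% and 71.1% in reporter positive cells of experiments 1 and 2. On GRCm38, RefSeq places Tnc starts 26211 and 26290 bases upstream of the annotated start, the nearer of them within the range of those distances. For Fn1, forms with the 270-base extra domain A exon (mm9 chromosome 1, 71650234 to 71650503), which is known from wound and tumour fibronectin, made up 0% and 62.1% in reporter negative and 22.5% and 65.3% in reporter positive cells of experiments 1 and 2. These shares separated the experiments, not the fractions, at levels of 0.366 to 2.24 FPKM.

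**Figure D3:**
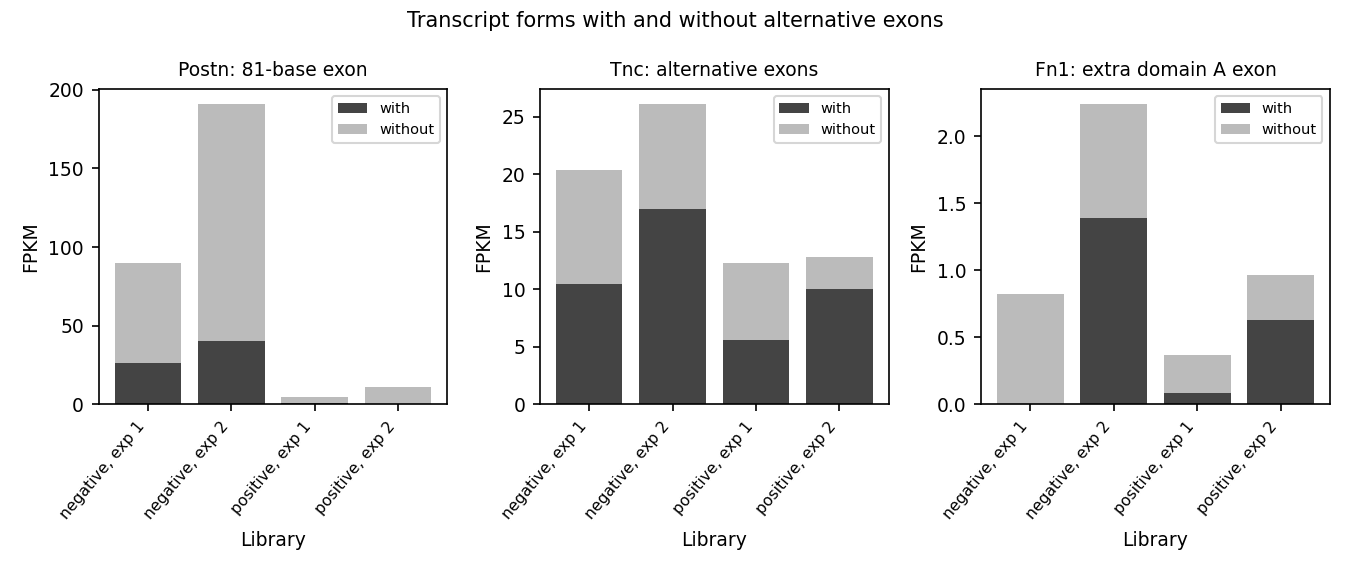
FPKM of transcript forms with (dark) and without (light) the alternative exons of Postn, Tnc and Fn1 in each library; bars stack to the gene's total. Both kinds of Postn form are lower in the reporter positive libraries, and the Fn1 form with extra domain A is 0% of the total in the reporter negative library of experiment 1 and 62.1% in that of experiment 2.

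Assembled forms also bore on Thbs1. In the reporter negative library of experiment 1, 33.8% of Thbs1 lay on an assembled form that differs from the annotated one by few bases (5846 against 5848 exonic bases). With annotated transcripts only, the Thbs1 log2 change was -1.80 and the adjusted p 0.167, the highest of its alternatives (0.00557 to 0.167). The restriction gave log2 changes of -0.30 for Sparc, which had 57.4% on an assembled form in the reporter negative library of experiment 2, and -0.40 for Ccn1, which had 28.1% on one in that of experiment 1. With the most abundant transcript in place of the sum, the Tnc change was -0.30. With annotated transcripts only, no member passed in limma, and 95 of the 11246 genes tested in that fit passed. Tgfbi, Postn, Timp3 and Fn1 lay on annotated transcripts alone in every library. Under the restriction Postn and Tgfbi kept their log2 changes of -3.99 and -1.09, at limma adjusted p = 0.0783 and 0.0843. Why these 2 genes no longer passed was not tested.

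Several of these genes are also made by fibroblasts, so the level of fibroblast markers is given beside them. In bulk libraries, fewer cells of a type and less RNA per cell cannot be told apart. Of 23 fibroblast markers 15 were tested. Of these 1, the surface glycoprotein gene Thy1, fell, 14 did not pass, and 12 were lower in both experiments. Of all 11969 genes tested, 2.52% passed as lower in limma and 54.2% were lower in both experiments. With the experiments as blocks in limma 3 fibroblast markers fell, the intermediate filament gene Vim (adjusted p = 0.0332) and the collagen gene Col6a1 (adjusted p = 0.0443) besides Thy1. In that fit 761 of all 11969 genes tested passed as lower. The summed level of the 23 fibroblast markers was 347 and 458 FPKM in reporter negative and 254 and 289 FPKM in reporter positive cells, and none was at 0 in every library. S100a4, Gsn and Fbln1 carried most of that sum. The other 20 markers summed to 68.1 and 131.96 against 24.98 and 48.95 FPKM, 2.73-fold and 2.70-fold lower. Much of this difference came from Thy1 and from Vim, which was at 14.8 and 39.4 against 5.92 and 8.38 FPKM. Thy1 was at 15.2 and 32.5 against 0.521 and 1.80 FPKM, which is 29.2-fold and 18.04-fold lower. The fibrillar collagen genes were lower by less: Col1a1 was at 7.56 and 10.01 against 3.73 and 5.97 FPKM (2.03-fold and 1.68-fold), and Col3a1 at 7.02 and 15.3 against 3.28 and 9.63 FPKM (2.14-fold and 1.59-fold). The receptor gene Pdgfra, a defining fibroblast marker, was low everywhere, at 0.174 and 0.200 against 0.154 and 0.444 FPKM, as was Pdgfrb at 0.298 and 0.503 against 0.0268 and 0.171 FPKM. Of all 23 markers, 20 were lower in the reporter positive library in experiment 1 and 17 in experiment 2. The other 6 in experiment 2, Pdgfra, Dcn and Lum among them, were higher there. Summed smooth muscle and pericyte markers were at 38.8 and 44.2 against 25.4 and 25.6 FPKM, endothelial markers at 18.8 and 20.4 against 11.8 and 10.6 FPKM, and leukocyte markers at 17.3 and 16.9 against 18.6 and 36.4 FPKM. Acta2 (25.7 and 22.7 against 11.02 and 11.1 FPKM) carried much of the smooth muscle and pericyte sum. The endothelial difference in experiment 1 rested on Egfl7, listed at 7.05 FPKM in that reporter negative library and at 0 in all others. Of 5 tested smooth muscle and pericyte markers 1 (Acta2) fell, but not after median-of-ratios scaling (limma adjusted p = 0.0614). Cspg4 passed as lower with blocks (limma adjusted p = 0.0329), and it met the filter on low values through its reporter negative libraries alone. Among tested endothelial and leukocyte markers, 0 of 3 and 0 of 6 passed in limma (1 and 2 at an unadjusted p under 0.05). Of all 11969 genes tested, 5.07% passed in that fit and 3062 had an unadjusted p under 0.05. The smooth muscle marker Tagln, the endothelial marker Eng and the leukocyte marker Cd52 were listed at 0 in all 4 libraries. An exact 0 may be a missing estimate and is no evidence of absence: of the genes tested, 473 were listed at 0 in at least 1 library, and 268 of these reached 5 FPKM in another. The pan-leukocyte gene Ptprc was at 0.150 and 0.204 against 0.190 and 0.362 FPKM, and the endothelial gene Pecam1 at 2.28 and 4.49 against 1.92 and 1.99 FPKM. The part of these cell types in the lower levels of the 9 genes was not tested.

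**Figure D4:**
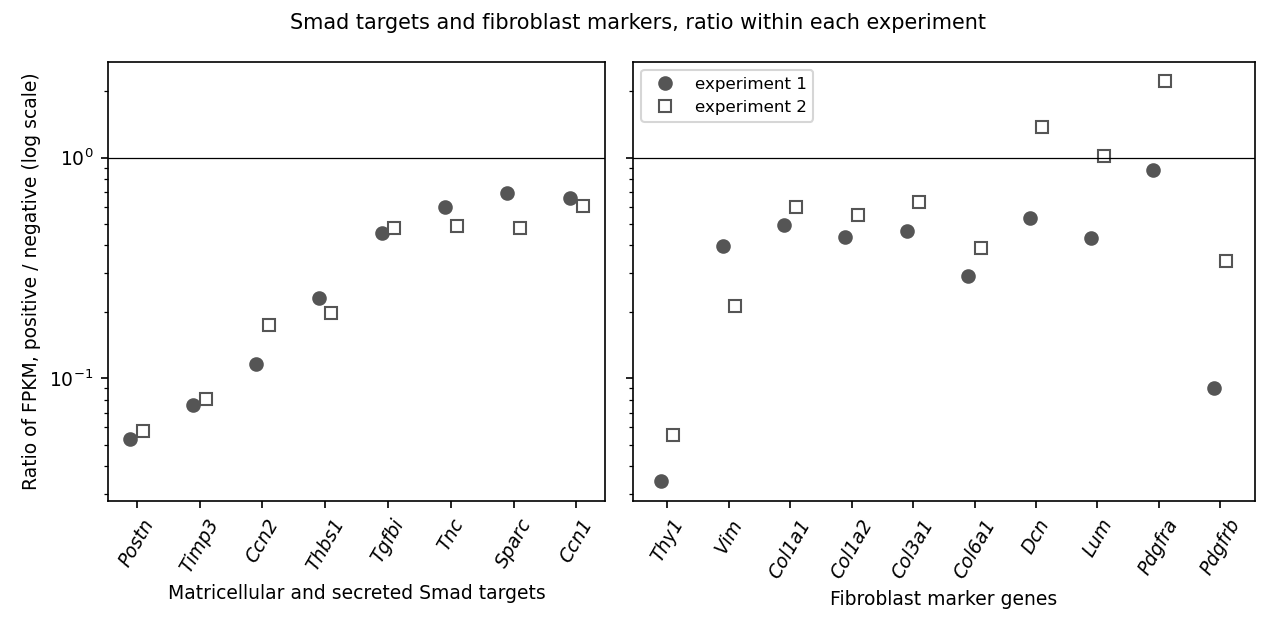
Ratio of FPKM, reporter positive over reporter negative, within experiment 1 (filled circles) and experiment 2 (open squares), on a log axis with a line at no difference. The left panel shows the 8 tested genes and the right panel 10 of the 23 fibroblast markers; Postn and Timp3 lie below 0.1 in both experiments, as does Thy1, while Col1a1, Col1a2 and Col3a1 lie between 0.438 and 0.628.

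Other genes of the same families and of the TGF-β response were read from the same limma fit. In it 2.52% of all 11969 genes tested passed as lower, 2.55% as higher and 5.07% in either direction. Of 11 other matricellular genes tested (of 27), 2 fell, 0 rose and 9 did not pass, with a median log2 change of -0.56 (-0.38 after median-of-ratios scaling, -0.31 after quantile normalization). The members that fell were Smoc2, a relative of Sparc (16.7 and 26.0 against 1.38 and 2.81 FPKM, adjusted p = 0.0249), and the tenascin gene Tnxb (2.54 and 1.88 against 0.035 and 0.064 FPKM, adjusted p = 0.0318), which like Ccn2 met the filter on low values through its reporter negative libraries alone. Thbs2, the closest relative of Thbs1, was at 2.97 and 7.43 against 0.708 and 1.47 FPKM without passing (adjusted p = 0.12; once blocked by experiment, 0.032). Of 30 other secreted TGF-β targets tested (of 37), 2 fell, 1 rose and 27 did not pass, with a median of -0.64 (-0.44 and -0.46 when rescaled in those ways). With blocks 3 of the matricellular list fell, and 6 of the secreted list fell and 1 rose, where 10.4% of all genes tested passed in either direction. The growth factor binding protein gene Igfbp7 (116 and 118 against 59.1 and 56.0 FPKM, adjusted p = 0.0281) and the protease gene Adamts1 (15.0 and 16.8 against 3.45 and 4.70 FPKM, adjusted p = 0.0249) fell. Pthlh, which encodes the parathyroid hormone-related peptide, rose (20.4 and 21.5 against 43.8 and 60.4 FPKM, adjusted p = 0.0413).

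Smad targets that stay inside the cell or on its surface formed a further list. Of 27 tested (of 33), 2 fell, 1 rose and 24 did not pass. In that limma fit 2.52% of all 11969 genes tested passed as lower and 2.55% as higher. The list had a median of -0.20 on the deposited scale, -0.02 after median-of-ratios scaling and 0.03 after quantile normalization. With blocks 6 fell and 3 rose, where 761 of all 11969 genes tested passed as lower and 489 as higher. Those that fell were Id3, an inhibitor of helix-loop-helix factors (36.1 and 37.2 against 17.96 and 17.6 FPKM, adjusted p = 0.032), and the smooth muscle actin gene Acta2 (25.7 and 22.7 against 11.02 and 11.1 FPKM, adjusted p = 0.036). After median-of-ratios scaling 1 of this list, Id3, passed as lower (limma adjusted p = 0.0457), and Acta2 did not (limma adjusted p = 0.0614). The cell cycle inhibitor gene Cdkn1a was the one that rose, from 52.6 and 56.0 to 127 and 129 FPKM (adjusted p = 0.0186). Of 23 YAP and TEAD targets tested (of 26), 1 fell, 0 rose and 22 did not pass. Beside them, 5.07% of all genes tested passed in either direction. The YAP and TEAD list had a median of -0.39 on the deposited scale, -0.19 after median-of-ratios scaling and -0.22 after quantile normalization. With blocks 3 fell and 1 rose, beside the 10.4% of all genes tested that passed in either direction. Ajuba, a LIM protein of the Hippo pathway, was the one that fell (50.2 and 55.1 against 27.2 and 29.2 FPKM, adjusted p = 0.0414), and with median-of-ratios scaling 0 of this list passed as lower and 1 as higher. Whether any of these lists differed from the 9 genes was not tested.

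**Figure D5:**
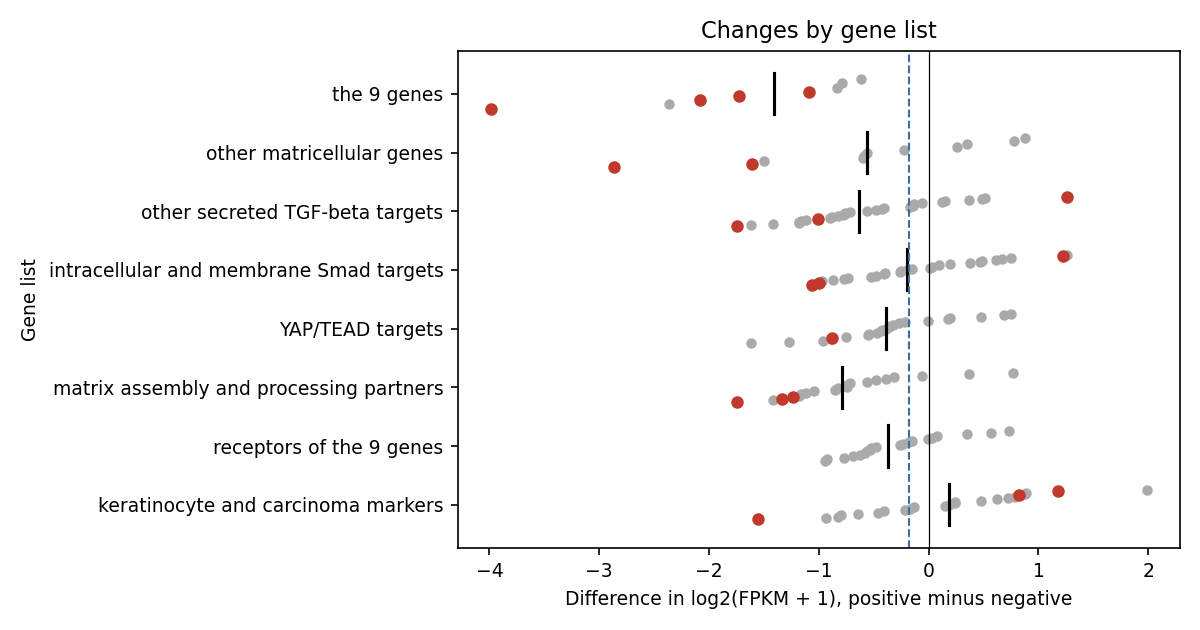
Difference in log2(FPKM + 1), reporter positive minus reporter negative, for the tested genes of each list. Points are genes (red, adjusted p under 0.05 in limma; grey, not passed), black bars are list medians, the dashed line is the median of all genes tested (-0.18) and vertical spread within a row has no meaning. The 9 genes have 8 tested members, all below 0, with a median of -1.41.

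Genes with the most similar profiles were found by the Euclidean distance between profiles of log2(FPKM + 1), each centred on its mean, over the 4 libraries and among 11488 other genes above 0 in every library. For Postn these were Thy1 (distance 0.50) and Clca3a2 (0.63), so that no gene lay close. For Timp3 they were the receptor gene Tnfrsf19 (0.30) and Serpina3h (0.37), whose close relatives in one cluster make the division of reads uncertain. For Thbs1 they were Antxr1, an anthrax toxin receptor that binds collagen (0.15), and the secreted protease gene Prss23 (0.19). For Ccn2 they were the ion cotransporter gene Slc12a4 (0.06) and the complement protease gene C1s1 (0.11), and for Tgfbi the cathepsin gene Ctsf (0.04) and the secreted protease gene Htra1 (0.07). The genes nearest to Ccn1 (Steap3 and Dhrs3), Tnc (Gusb and Slf2), Sparc (Fam76b and Notch1) and Fn1 (Cry2 and Nsd2) lay at 0.02 to 0.10. With 4 libraries, small distances are common for genes that change little. Profiles were not scaled, so distances tend to grow with the size of the change, which was largest for Postn.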

How the data were processed

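Libraries were prepared with a TrueSeq mRNA kit, per the labels' protocols. TopHat, Cufflinks and the mm9 build are listed in the submitters' processing notes; for versions and annotation release the sources used here say nothing. The deposited transcript tables hold FPKM values, their intervals and read coverage, per the file headers, so no count model was used. FPKM depends on which forms were assembled in a library.

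Transcripts of at least 200 exonic bases were summed per gene (Python 3.11.15, pandas 2.3.3). Names came from GENCODE M21 by transcript identifier for 84047 of 96734 reference transcripts and from the gene identifier in the files for 5138; all others, and assembled ones, went to the gene whose same-strand exons held at least 50% of their length. Shorter transcripts carried 95.1% to 98.9% of listed FPKM. Depth was read from the ratio of coverage to FPKM.

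Genes reaching 1 FPKM in 2 libraries entered a limma 3.58.1 fit (R 4.3.3, eBayes with intensity trend) on log2(FPKM + 1), two-sided, with Benjamini-Hochberg adjustment; the fit was tested on simulated data. The smallest p that 2 libraries against 2 allow in an exact permutation test is 0.333. No label names separate animals, and p-values reflect the spread between these 4 libraries, which may be technical. Titles number the experiments, which pairs fractions; deviations of same-numbered libraries from their group means correlated at 0.174 across genes.

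The 9 genes and all lists were chosen with earlier results of these data known. Named genes were the 9; up to 4 genes per list with the smallest p and above 0 in every library; defining markers; and the 2 nearest profiles of each of the 9.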

Additional observations from a re-analysis of the deposited data

How the results depend on the processing

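Of 11969 genes tested 607 passed (305 higher, 302 lower) and 3062 had an unadjusted p under 0.05. The count was 1250 with a replicate block, 1209 without genes listed at 0, 973 with robust variance, 312 with the most abundant transcript per gene, 95 with reference transcripts only and 4 with no filter on low values. Without 1 library it was 3 to 179, lowest without reporter negative replicate 2; the lone library was then assumed to vary like the other group. With median-of-ratios scaling 419 were higher and 195 lower, and with quantile normalization 407 and 252. Of the 9 genes, 4 passed, and each call needed all 4 libraries. That number was 6 with the replicate block (Timp3 and Tnc added, no call lost) and 2 with the most abundant transcript (Tgfbi and Ccn2). For the 9 genes it was 0 with reference transcripts only and 0 with no filter. Their median change of -1.41 was -1.65 with 0.1 FPKM added, -1.09 with no filter, -0.96 with a minimum of 5 FPKM (6 genes), -1.24 with median-of-ratios scaling, -1.28 with quantile normalization, -1.48 with the most abundant transcript, and -1.56 to -1.26 without 1 library. Every tested member was lower under each of these alternatives. Where a smaller gene set or fewer libraries does not account for a difference, the cause was not tested. Depth limits Ccn2, Timp3 and Fn1 in reporter positive cells, at about 1 FPKM or less.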

Other observations

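Partners that assemble and process the matrix were examined as a further list. Of 20 tested (of 41), 3 fell, 0 rose and 17 did not pass in limma. In that fit 2.52% of all 11969 genes tested passed as lower and 5.07% in either direction. The list had a median log2 change of -0.79 on the deposited scale, -0.62 after median-of-ratios scaling and -0.59 after quantile normalization. With the experiments as blocks 8 were lower and 0 higher, where 761 of all 11969 genes tested were lower and 489 higher. The collagen chaperone gene Serpinh1 fell (102 and 93.7 against 37.8 and 38.6 FPKM, adjusted p = 0.018), as did Bmp1, which encodes the procollagen C-proteinase that also processes other matrix proteins (31.6 and 37.4 against 13.3 and 14.8 FPKM, adjusted p = 0.0316), and Adamts1. The gelatinase gene Mmp2 was at 6.11 and 8.55 against 1.46 and 2.89 FPKM (adjusted p = 0.0744, and 0.0245 with blocks).

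Receptors that bind the 9 secreted proteins did not pass in either direction. Of 20 tested (of 29), 0 passed in limma, beside 5.07% of all 11969 genes tested. In the same fit 9 of the 20 had an unadjusted p under 0.05, as did 3062 of all 11969. Cd47, a receptor of Thbs1, was at 38.2 and 34.0 against 20.5 and 23.5 FPKM (adjusted p = 0.078), and the integrin gene Itga3 at 89.7 and 93.9 against 65.6 and 57.1 FPKM (adjusted p = 0.0901). The syndecan gene Sdc1 was at 416 and 461 against 660 and 799 FPKM (adjusted p = 0.0919). With the experiments as blocks it passed as higher (limma adjusted p = 0.0285), and 1 receptor passed as lower, while 10.4% of all genes tested passed in that fit.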
